A study of Rattus norvegicus with 8 samples.

Results

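The heat shock proteins and cochaperones that serve the cytosol were examined in primary oligodendrocyte precursor cells of the rat, proliferating glia from which myelin-forming oligodendrocytes develop. Members were chosen by gene symbol alone: Hsp, Dnaj, Cct2 to Cct8 and Bag1 to Bag6 genes, with Tcp1, Cryab, Chordc1, Ahsa1, Stip1 and Hsf1, and without Hspg2, Hspa5, Hsp90b1, Dnajb9, Dnajb11 and Dnajc3. This gave 90 genes out of 32662 rows, since 3 of the 93 matching rows shared a symbol with a higher row. The name cytosolic holds for most of them, but 8 of the 90 encode proteins known from mitochondria (Hspa9, Hspd1, Dnaja3, Dnajc11, Dnajc15, Dnajc19, Dnajc28 and Dnajc30). A further 8 were counted as encoding proteins known from the endoplasmic reticulum (Hspa13, Dnajc1, Dnajc10, Dnajc14, Dnajc16, Dnajc18, Dnajb12 and Dnajb14), a count that may not be complete.

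The study compared 4 control libraries with 4 libraries of cells deprived of oxygen and glucose for 6 h (OGD), which models ischaemia in a dish. All cells came from the cerebral cortex of Sprague Dawley pups aged 1 to 2 days, were taken as the non-adherent cells of mixed glial cultures in 20% serum, and then grew for 4 to 5 days. In both groups the growth medium was Neurobasal with B27 (2%), glutamine (2 mM) and the growth factors FGF and PDGF, each at 10 ng/ml. The medium during the 6 h of exposure is not described here. No label says that the libraries of a group came from separate cultures, so the p-values given here reflect the spread among libraries alone, and that spread may be technical.

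Chaperones bind unfolded protein and release it again in cycles. Hsp70 proteins do so by hydrolysing ATP: J-domain proteins (the DNAJ families) bring clients and start hydrolysis. Nucleotide exchange factors (the Hsp110 proteins, most BAG proteins and Hspbp1) reset the cycle. Hsp90 receives clients from Hsp70 through the bridge protein Stip1 and matures kinases and hormone receptors, while the ring-shaped chaperonin CCT folds actin and tubulin. When unfolded protein accumulates, the transcription factor HSF1 binds heat shock elements, repeats of GAA and its complement TTC, and raises the inducible chaperones.

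Values are FPKM, which divides the fragments of a gene by its length and by the size of the library. Depth is known only relative to control replicate 1, as read from low values: it was lowest in OGD replicate 2 (0.816) and highest in OGD replicate 4 (1.18). Protein genes encoded by mitochondrial DNA (13) took up 25.1% to 27.9% of summed FPKM in the control group. Their share was 29.6%, 30.4%, 23.4% and 20.4% for OGD replicates 1 to 4. Precursor markers were abundant in all libraries (8 genes, summed at 2241 to 2365 FPKM in control and 1474 to 1703 FPKM in OGD), and 5 of the 8 fell. Microglial markers were summed at 269.1 to 418.7 FPKM in control and 97.1 to 171.3 FPKM in OGD, with 10 of 11 falling and a median log2 change of -1.29. Astrocyte markers were at 58.6 to 76.9 and 55.2 to 63.4 FPKM (1 of 4 tested genes, Gfap, fell), and neuronal markers at 88.4 to 96.1 and 104.9 to 118.1 FPKM (2 of 6 rose and 2 fell). Vascular and stromal markers stayed at or under 0.314 FPKM in sum, and Cldn5, Rgs5 and Dcn were listed at 0 throughout. The part of other cell types in the chaperone values below was not tested, and in bulk RNA fewer cells of a type and less RNA per cell cannot be told apart.

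Of the 90 genes, 68 reached at least 1 FPKM in at least 4 libraries and were tested. After 6 h of OGD 12 of the 68 were higher, 20 were lower and 36 did not pass (limma on log2(FPKM + 1), Benjamini-Hochberg adjusted p under 0.05). Over all 11149 tested genes 49.5% passed, 22.7% as higher and 26.8% as lower. The shares of the chaperones, 17.6% and 29.4%, were near this background. The counts by family and by list below are to be set against the same background, and little can be read from counts in such small sets. Changes of at least 1.5-fold on the FPKM + 1 scale were 4 rises and 5 falls (5.88% and 7.35%, against 7.68% and 9.73% of all tested genes). The median log2 change was -0.08 for the chaperones and -0.04 for all tested genes. In 12 chaperone genes every OGD library lay above every control library, and in 19 every one lay below (20.7% and 24.1% of all tested genes, 44.7% together). Set against all controls, OGD replicates 3 and 4 alone gave 11 lower and 11 higher genes, and replicates 1 and 2 alone gave 25 lower and 11 higher, comparisons chosen after seeing the data. How many of all tested genes were called in these smaller fits is not given, so the counts cannot be read as particular to the chaperones. The chaperone median log2 change was -0.03 with replicates 3 and 4 and -0.18 with 1 and 2, against -0.03 and -0.04 for all tested genes. Calls lost with replicates 3 and 4 were those on Bag6, Cct6a, Dnaja2, Dnajb1, Dnajb3, Dnajc27, Dnajc28, Dnajc8, Hspbp1, Hspd1 and Hsph1. Those lost with replicates 1 and 2 were on Dnajc12, Dnajc13, Dnajc28 and Hspbp1. Gained with replicates 1 and 2 were 7 falls (Cct3, Cct5, Cct7, Cct8, Tcp1, Hsp90aa1 and Hspb11) and 1 rise (Dnajc7), and with replicates 3 and 4 a rise of Dnajc1.

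**Figure D1:**
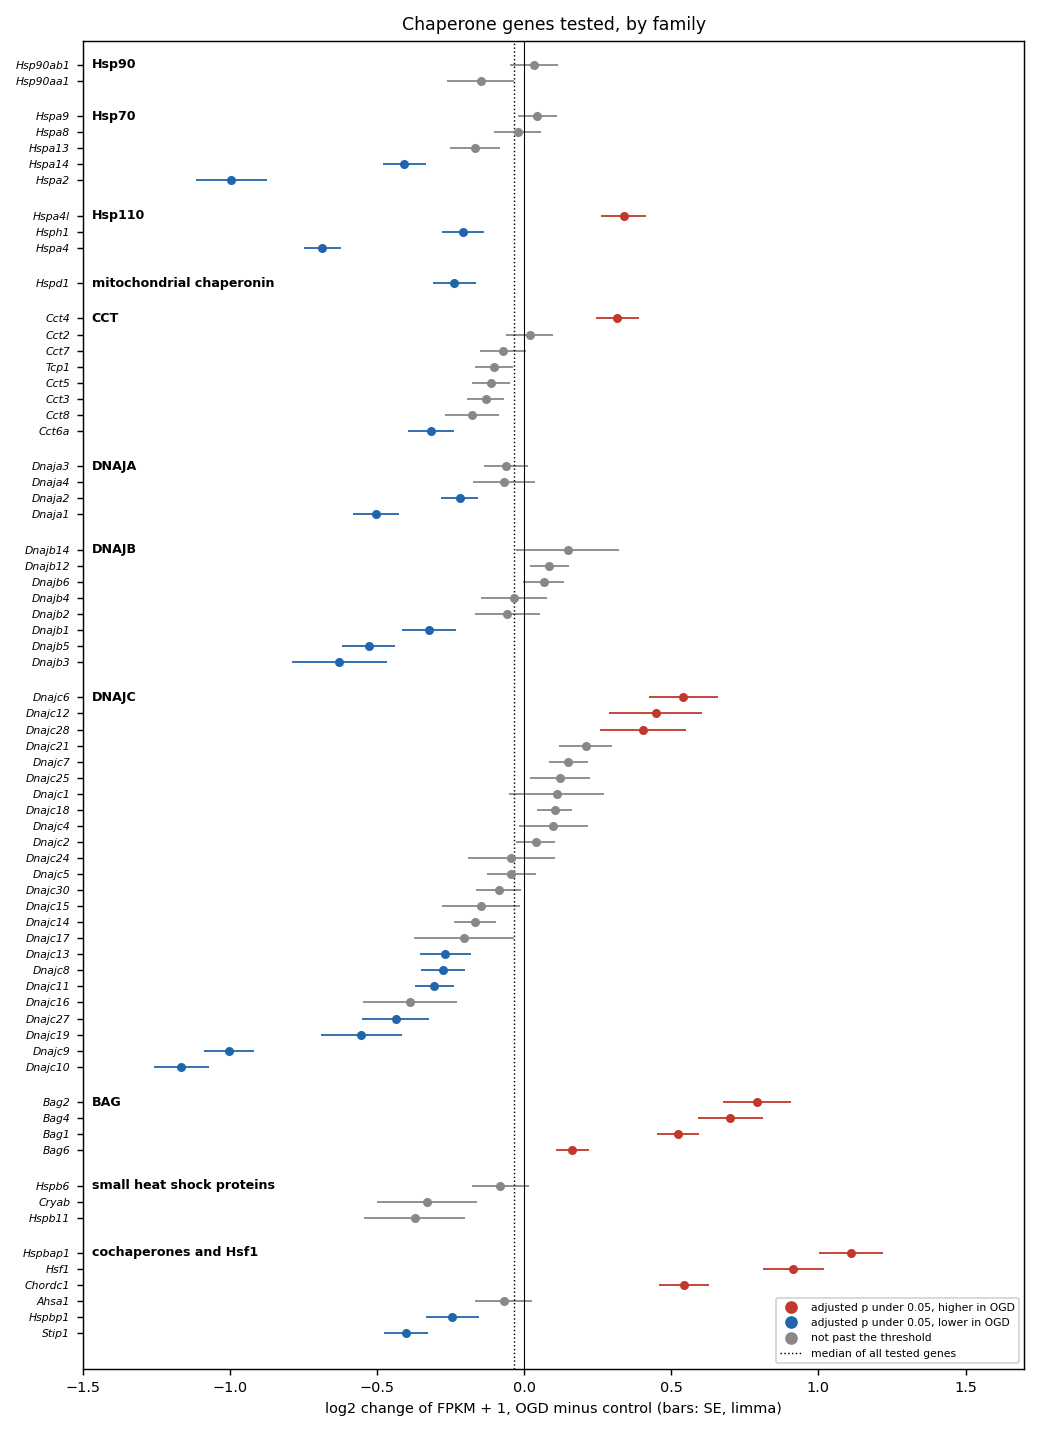
log2 change of FPKM + 1 (OGD minus control, x axis, with SE bars from limma) of the 68 tested chaperone genes, grouped by family. Red points passed as higher, blue as lower and grey did not pass, and the dotted line is the median of all tested genes at -0.04. The 4 tested BAG genes stand to the right of 0, and most CCT genes stand close to it.

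The regulator itself rose. Hsf1 (ENSRNOG00000021732), the transcription factor of the heat shock response, stood at 10.2, 9.99, 7.81 and 9.87 FPKM in control replicates 1 to 4 and at 18.5, 21.7, 17.9 and 16.8 FPKM in OGD replicates 1 to 4. Every OGD library lay well above every control library. The log2 change was 0.91 (SE 0.10, limma adjusted p = 4.99e-05). Of the 9 matched genes of a list of the HSF axis outside the chosen members, 7 were tested, of which 3 rose and 3 fell. For all tested genes the shares were 22.7% and 26.8%. Hsf2, a second heat shock factor, rose from 23.5 ± 1.02 to 32.1 ± 0.806 FPKM (SD, n = 4 each), and Sirt1, a deacetylase that acts on HSF1, from 6.99 ± 0.238 to 10.1 ± 0.840 FPKM. Hsbp1, a small protein that binds the trimer of HSF1, fell from 256.8 ± 20.6 to 183.5 ± 13.3 FPKM. Also past the test, and named after their values were seen, were the stress-inducible genes Hmox1 (log2 change 0.58) and Mt1 (-1.07), both with overlapping groups.

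Chaperone genes known as targets of HSF1 went in both directions. Of 18 such genes 17 were matched (Hspe1 was not) and 13 were tested, of which 2 rose, 5 fell and 6 did not pass, with a median log2 change of -0.15. Over all tested genes 22.7% were higher and 26.8% lower, and with so few genes nothing particular to the list can be read from its counts. Of the 5 falls, those of Dnajb1, Hspd1 and Hsph1 were lost with OGD replicates 3 and 4 alone (limma adjusted p = 0.123, 0.150 and 0.126). The list was drawn up from general knowledge with earlier results of these data known. The inducible Hsp70 genes stayed near 0. Hspa1a was listed at 0.0932, 0.180, 0.0839 and 0 FPKM in control replicates 1 to 4 and at 0.10, 0.114, 0 and 0.0791 FPKM in OGD replicates 1 to 4, with no separation between groups. Hspa1b was at 0, 0, 0.0564 and 0 FPKM in the control libraries and at 0.0674, 0.153, 0.110 and 0.159 FPKM after OGD, so the OGD libraries lay above at a very low level. Without a filter on low values Hspa1b passed as higher (log2 change 0.15, limma adjusted p = 0.0304). The 2 genes are near-identical copies, so how reads were divided between them is uncertain. Hspb1, the small heat shock protein Hsp27, was above 0 in control replicates 2 and 3 (0.578 and 0.359 FPKM) and in OGD replicate 2 (0.489 FPKM), and listed at 0 in the other 5 libraries.

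**Figure D2:**
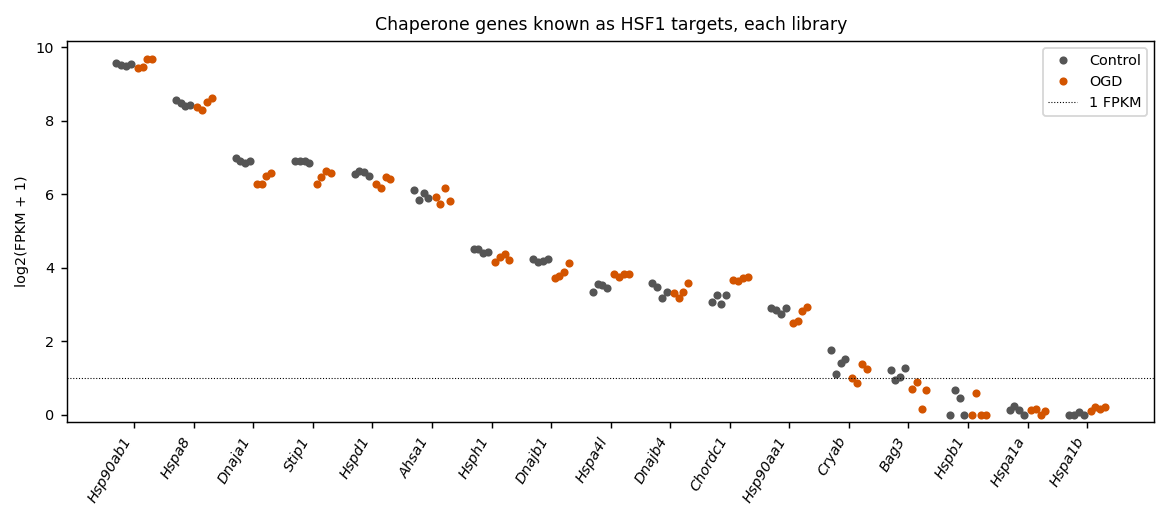
log2(FPKM + 1) in each library for the 17 matched chaperone genes known as targets of HSF1 (grey: 4 control libraries, orange: 4 OGD libraries, replicates 1 to 4 from left; the dotted line is 1 FPKM), ordered by mean control level. Hspa1a, Hspa1b and Hspb1 lie at or near 0 in both groups, and Hspa4l and Chordc1 are the genes with OGD above control past the test.

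The sequences before the start sites show where heat shock elements lie in these genes. RefSeq promoters on rat build GRCr8 were found by symbol for 70 of the 90 genes, and the 250 bases before the start were searched on both strands. Genes such as Bag6 had more than 1 promoter, and a chaperone gene counted if any of its promoters held a match. The share over all was counted promoter by promoter, so the chaperone shares are raised against it by an unknown amount. The element of 3 units (GAANNTTCNNGAA) was present in 3 of the 70 (4.29%) and in 0.663% of 33469 promoters. These are the genes of the constitutive Hsp70 (Hspa8), of the mitochondrial chaperonin Hsp60 (Hspd1) and of Hsp105 (Hsph1), shown with every element of 2 or 3 units in capitals. Elements of 2 units (GAANNTTC or TTCNNGAA) lie within those of 3 units and overlap them. Dnajb1, the classical Hsp40, has 1 element of 2 units next to the start.
Hspa8, chr8:50080264-50080513 (plus strand): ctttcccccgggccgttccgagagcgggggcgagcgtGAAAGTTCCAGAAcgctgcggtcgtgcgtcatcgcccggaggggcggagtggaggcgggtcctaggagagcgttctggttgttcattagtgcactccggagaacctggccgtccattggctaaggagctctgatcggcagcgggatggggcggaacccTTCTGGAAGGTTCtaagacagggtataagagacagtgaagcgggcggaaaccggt
Hspd1, chr9:64084038-64084287 (minus strand): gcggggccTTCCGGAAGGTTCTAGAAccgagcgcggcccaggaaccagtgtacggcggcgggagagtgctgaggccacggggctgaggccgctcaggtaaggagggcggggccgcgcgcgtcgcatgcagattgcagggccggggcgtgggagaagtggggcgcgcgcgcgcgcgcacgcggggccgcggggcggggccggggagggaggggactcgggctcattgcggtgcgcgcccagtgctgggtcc
Hsph1, chr12:10427118-10427367 (plus strand): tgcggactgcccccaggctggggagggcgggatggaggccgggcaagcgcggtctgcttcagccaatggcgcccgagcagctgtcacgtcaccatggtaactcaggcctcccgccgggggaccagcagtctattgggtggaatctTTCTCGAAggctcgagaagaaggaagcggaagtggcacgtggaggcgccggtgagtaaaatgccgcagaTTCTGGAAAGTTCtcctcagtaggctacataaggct
Dnajb1, chr19:41431142-41431391 (minus strand): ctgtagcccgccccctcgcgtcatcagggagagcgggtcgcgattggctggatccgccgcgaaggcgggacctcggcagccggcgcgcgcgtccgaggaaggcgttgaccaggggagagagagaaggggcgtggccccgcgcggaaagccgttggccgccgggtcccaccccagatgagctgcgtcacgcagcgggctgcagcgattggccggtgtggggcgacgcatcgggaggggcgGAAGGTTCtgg

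The capitals form 2 stretches in Hspa8, 1 in Hspd1, 2 in Hsph1 and 1 in Dnajb1. Hspd1, Hsph1 and Dnajb1 fell and Hspa8 did not pass the test, with values beside each gene in what follows. An element of 2 units or more was present in 25.7% of the 70 chaperone genes and in 13.5% of all promoters, counted as above. Among 14 tested genes with such an element, 0 rose, 8 fell and 6 did not pass (limma; 0 higher at an unadjusted p under 0.05, and 0 in any of 19 alternative analyses). Among 41 tested genes whose window lacks it, 9 rose, 9 fell and 23 did not pass. By comparison 22.7% of all tested genes were higher and 26.8% lower. Of the 8 falls, 5 (Cct6a, Dnajb1, Dnajc27, Hspd1 and Hsph1) were lost with OGD replicates 3 and 4 alone (limma adjusted p = 0.0648 to 0.150), while those of Dnaja1, Hspa2 and Stip1 were not. The core of the hypoxia response element was also searched. ACGTG stood in 22.9% of the 70 chaperone genes and 16.6% of all promoters, and GCGTG in 50% and 25.9%, counted the same way. One or the other stood in the windows of 36 tested genes, of which 7 rose, 10 fell and 19 did not pass. Of 19 tested genes with neither, 2 rose, 7 fell and 10 did not pass. Shares called among all tested genes with either element are not given here, so these counts show nothing particular to the chaperones. These matches of letters are a description, not binding sites.

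The gene with the largest rise among the chaperones, Hspbap1, holds 6 matches to these cores in 4 stretches, shown in capitals. CACGTG counts on both strands. Dnajc13, which fell, and Dnajc16 and Dnajc25, which did not pass, hold 5 matches each.
Hspbap1, chr11:78500035-78500284 (minus strand): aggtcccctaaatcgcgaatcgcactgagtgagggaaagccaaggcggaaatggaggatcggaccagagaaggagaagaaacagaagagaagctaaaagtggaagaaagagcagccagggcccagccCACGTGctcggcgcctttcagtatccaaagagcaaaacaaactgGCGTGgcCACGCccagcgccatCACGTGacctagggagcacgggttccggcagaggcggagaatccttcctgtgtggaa

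Hspbap1 (ENSRNOG00000002241), which encodes a protein that binds the small heat shock protein Hspb1, stood at 4.56, 4.81, 4.48 and 4.38 FPKM in the control libraries and at 9.71, 10.2, 10.7 and 13.8 FPKM after OGD. The control libraries were close together, and the lowest OGD library lay far above them. Its log2 change was 1.11 (SE 0.11, limma adjusted p = 1.86e-05).

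Among Hsp70 genes the abundant constitutive form did not pass, while 2 less abundant forms fell. Of 10 members 5 were tested, of which 2 fell and 3 did not pass. Hspa8 (ENSRNOG00000034066), the constitutive Hsc70 that also strips clathrin from vesicles, was the second most abundant chaperone transcript. It stood at 381.0, 355.6, 334.0 and 345.0 FPKM in the control libraries and at 331.7, 313.6, 360.6 and 391.1 FPKM after OGD (log2 change -0.02, SE 0.08, limma adjusted p = 0.838). The groups overlapped. Hspa2 (ENSRNOG00000006472), an Hsp70 best known from the testis, stood at 7.64, 6.5, 5.60 and 7.59 FPKM in the control libraries and at 2.94, 2.36, 3.05 and 3.32 FPKM after OGD. The groups were apart, and the log2 change was -1.0 (SE 0.12, limma adjusted p = 8.18e-05). Hspa14, an Hsp70 that works at the ribosome, fell from 26.2 ± 0.907 to 19.5 ± 1.68 FPKM. Hspa8 and other Hsp70 genes have close copies in the genome, which makes their values less certain.

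The exchange factors of Hsp70 moved in opposite directions. All 3 Hsp110 genes passed. Hspa4 (ENSRNOG00000016596), the Hsp110 protein Apg-2, stood at 54.8, 59.0, 52.4 and 54.9 FPKM in the control libraries and at 32.5, 32.7, 35.4 and 35.4 FPKM after OGD. Its log2 change was -0.69 (SE 0.06, limma adjusted p = 1.30e-05). Hspa4l, its close relative Apg-1, rose from 10.1 ± 0.735 to 12.9 ± 0.430 FPKM. Hsph1 fell from 21.1 ± 0.877 to 18.1 ± 1.24 FPKM (limma, adjusted p = 0.0303). The call on Hsph1 was lost without control replicate 1, 2 or 4 or without OGD replicate 1 or 4 (adjusted p = 0.0646, 0.0745, 0.0509, 0.0854 and 0.0574), and when FPKM were rescaled outside mitochondrially encoded genes (adjusted p = 0.0777). It was also lost with the replicate number as a block (adjusted p = 0.0552). Hspbp1, an exchange factor without a chaperone domain, fell from 21.9 ± 2.26 to 18.3 ± 1.56 FPKM with overlapping groups (limma, adjusted p = 0.0438). That call was lost without control replicate 1, 3 or 4 or without OGD replicate 1 or 3 (adjusted p = 0.111, 0.0967, 0.0905, 0.120 and 0.0879), with the block (0.0719), without trend (0.0584) and with no filter (0.0653).

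The tested BAG genes were higher. Most products of this family release Hsp70 clients and link the chaperone to other partners. All 4 tested members of the 6 passed as higher, against 22.7% of all tested genes, with a median log2 change of 0.61. The family is small, the call on Bag6 was often lost, and the untested Bag3 was lower, as given below. Bag2 (ENSRNOG00000012709), an inhibitor of the chaperone-linked ubiquitin ligase CHIP, stood at 2.47, 2.09, 1.95 and 2.12 FPKM in the control libraries and at 4.76, 3.78, 4.14 and 5.24 FPKM after OGD (log2 change 0.79, SE 0.12, limma adjusted p = 0.000266). Bag4 (ENSRNOG00000042560), the silencer of death domains, stood at 6.70, 8.47, 8.11 and 7.01 FPKM in the control libraries and at 11.5, 13.8, 15 and 11.5 FPKM after OGD (log2 change 0.70, SE 0.11, limma adjusted p = 0.000407). In both genes the groups were well apart.

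Bag1 (ENSRNOG00000008277), which couples Hsp70 to the proteasome, stood at 17.9, 15.6, 18.9 and 18.2 FPKM in the control libraries and at 26.0, 25.6, 25.6 and 25.6 FPKM after OGD (log2 change 0.52, SE 0.07, limma adjusted p = 0.000175). The 4 OGD libraries were almost equal as deposited (SD over mean 0.77%), but less so when rescaled outside mitochondrially encoded genes (3.68%). Bag6, which delivers tail-anchored and misfolded proteins, rose from 78.3 ± 2.72 to 87.9 ± 3.55 FPKM (log2 change 0.16, limma adjusted p = 0.0346). This smaller rise no longer passed without control replicate 1, 3 or 4 (adjusted p = 0.0601, 0.0823 and 0.0988), without OGD replicate 1, 2 or 3 (0.0696, 0.0783 and 0.0763), with median-centring (0.0829), without trend (0.0678) or with the block (0.0507). Bag3, the stress-inducible member that routes clients to autophagy, stood below the filter at 1.33, 0.921, 1.03 and 1.43 FPKM in the control libraries and at 0.615, 0.855, 0.111 and 0.592 FPKM after OGD. Its OGD libraries lay below its control libraries, the reverse of the tested BAG genes, and without a filter it passed as lower (log2 change -0.51, limma adjusted p = 0.0376).

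**Figure D3:**
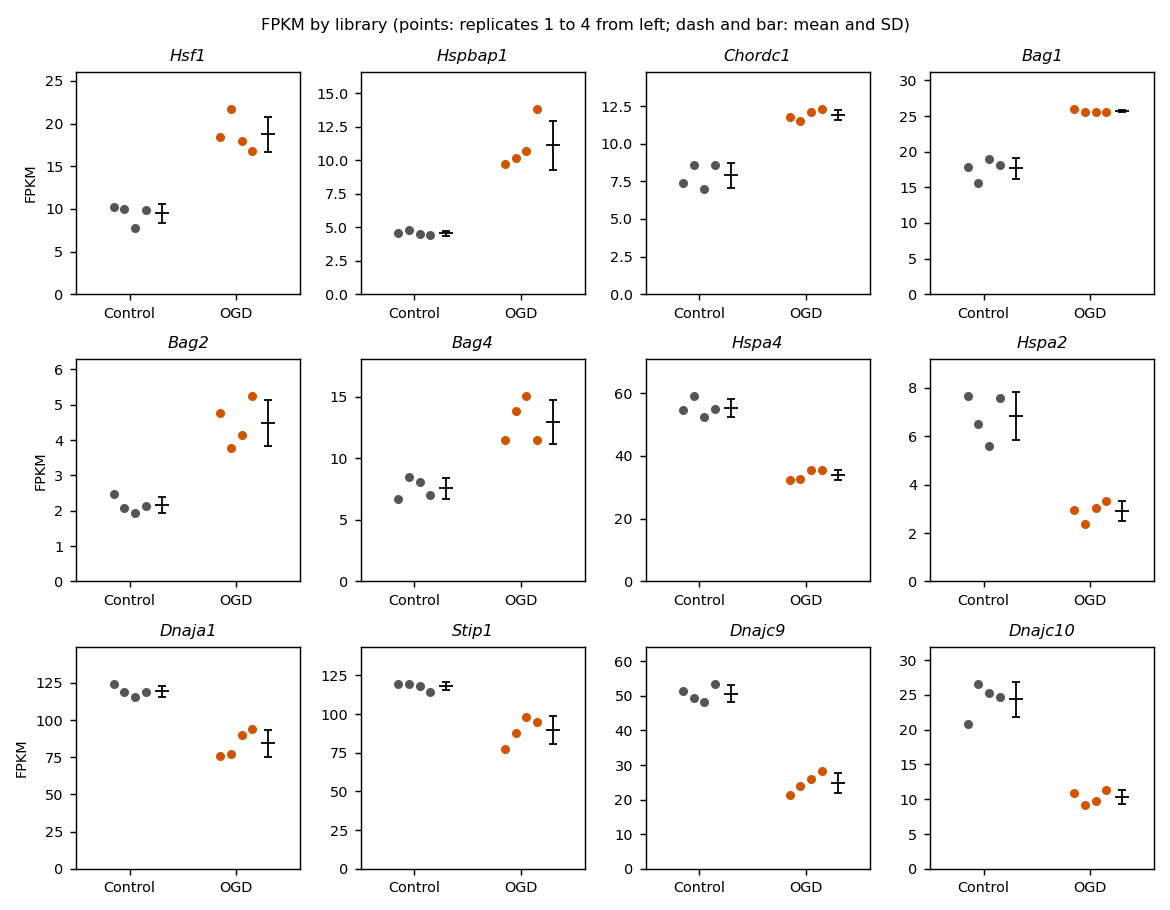
FPKM (y axis, from 0) of 12 chaperone genes in each library, with replicates 1 to 4 from left to right in each group and the mean and SD beside them. In each of the 12 genes the OGD libraries all lie on one side of the control libraries: above for Hsf1, Hspbap1, Chordc1, Bag1, Bag2 and Bag4, and below for Hspa4, Hspa2, Dnaja1, Stip1, Dnajc9 and Dnajc10.

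Of the partners of Hsp70 outside the chosen members, 3 of 10 rose and 1 fell, but without control replicate 3 only 1 of the 3 rises, that of Sgtb, still passed. With all libraries 22.7% of all tested genes were higher and 26.8% lower. Sgtb, a tetratricopeptide cochaperone, rose from 6.42 ± 1.75 to 14.6 ± 2.26 FPKM (log2 change 1.09, limma adjusted p = 0.000228). Ube4b, a ubiquitin chain factor, rose from 22.8 ± 1.41 to 26.6 ± 0.468 FPKM, a call lost without control replicate 3 or 4 (limma adjusted p = 0.0511 and 0.0585). Grpel2, an exchange factor of mitochondrial Hsp70 named after its values were seen, rose from 5.0 ± 0.564 to 6.29 ± 0.335 FPKM. That call was lost without control replicate 2, 3 or 4 or OGD replicate 1 or 3 (limma adjusted p = 0.0514 to 0.0812). Ubqln2, a ubiquilin that carries clients to the proteasome, fell from 54.3 ± 2.69 to 44.2 ± 2.36 FPKM.

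No tested DNAJA or DNAJB gene passed as higher (limma; 0 at an unadjusted p under 0.05 and 0 under any of the 19 alternatives). Among all tested genes 22.7% were higher and 26.8% lower, and with so few genes this absence cannot be read as particular to them. These families hold the J-domain proteins that feed Hsp70 most generally, but also the mitochondrial Dnaja3 and the endoplasmic reticulum genes Dnajb12 and Dnajb14. Among DNAJA genes 2 of 4 fell and 2 did not pass. Dnaja1 (ENSRNOG00000007029), the most abundant DNAJA member and a general partner of Hspa8, stood at 124.6, 118.9, 115.3 and 119.0 FPKM in the control libraries and at 76.2, 77.0, 90.1 and 93.9 FPKM after OGD. The highest OGD library remained below the lowest control library (log2 change -0.50, SE 0.08, limma adjusted p = 0.000375). Dnaja2 fell from 73.4 ± 2.79 to 62.9 ± 3.64 FPKM, a call that quantile normalization ended (adjusted p = 0.0808).

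Among DNAJB genes 8 of 11 were tested, of which 3 fell and 5 did not pass. Dnajb1 (ENSRNOG00000021824) stood at 17.8, 16.7, 17.1 and 17.9 FPKM in the control libraries and at 12.1, 12.7, 13.8 and 16.4 FPKM after OGD (log2 change -0.32, SE 0.09, limma adjusted p = 0.0129). OGD replicate 4 came close to the control libraries. Dnajb5, the most abundant DNAJB member, fell from 33.7 ± 3.57 to 23.0 ± 2.07 FPKM, and the scarce Dnajb3 fell from 1.67 ± 0.274 to 0.747 ± 0.342 FPKM. Dnajb4, also known as a heat shock target, stood at 9.52 ± 1.23 and 9.27 ± 1.21 FPKM and did not pass (limma, adjusted p = 0.817).

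DNAJC genes, a family of J-domain proteins with specialised posts, spread most widely. Of 27 members 24 were tested, of which 3 rose, 7 fell and 14 did not pass, with a median log2 change of -0.07. Dnajc10 (ENSRNOG00000006803), the disulfide reductase ERdj5 of the endoplasmic reticulum, stood at 20.8, 26.6, 25.2 and 24.7 FPKM in the control libraries and at 10.9, 9.21, 9.76 and 11.3 FPKM after OGD. It was the largest fall among the tested chaperone genes (log2 change -1.17, SE 0.09, limma adjusted p = 5.47e-06). Among the 8 genes counted above as having endoplasmic reticulum products it was the only one to pass, and the other 7 did not (median log2 change of the 8, -0.04). Of the 5 chaperones of that compartment left out by the rule, 4 fell, among them Hspa5 (BiP, log2 change -1.04) and Dnajb11 (-0.62). Of all tested genes 26.8% were lower. The fall of Dnajc3 was lost without control replicate 1, 2 or 3 or OGD replicate 2 or 3 (limma adjusted p = 0.0524 to 0.0791), with rescaling outside mitochondrially encoded genes (0.0738) and with the block (0.0543).

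Dnajc9 (ENSRNOG00000006619), a histone chaperone that recruits Hsp70 to chromatin, stood at 51.5, 49.3, 48.2 and 53.6 FPKM in the control libraries and at 21.3, 23.9, 26.0 and 28.3 FPKM after OGD. Its log2 change was -1.0 (SE 0.09, limma adjusted p = 7.71e-06). Dnajc19, a component of the mitochondrial import motor, fell from 7.59 ± 1.37 to 4.83 ± 0.744 FPKM, and Dnajc27, a small GTPase with a J domain, from 4.08 ± 0.447 to 2.76 ± 0.405 FPKM. The other 3 that fell were Dnajc11 (log2 change -0.31), Dnajc8 (-0.28) and Dnajc13 (-0.27), named after their values were seen. The call on Dnajc13 (limma) was lost without control replicate 2, 3 or 4 (adjusted p = 0.0659, 0.0541 and 0.0595), without OGD replicate 1 or 4 (0.0579 and 0.0512) and with rescaling outside mitochondrially encoded genes (0.0823).

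Dnajc6, the clathrin-uncoating cofactor auxilin, rose from 1.04 ± 0.152 to 1.97 ± 0.176 FPKM (log2 change 0.54, limma adjusted p = 0.00299). Dnajc12 rose from 4.46 ± 0.846 to 6.49 ± 1.44 FPKM with overlapping groups, and the mitochondrial Dnajc28 rose from 2.38 ± 0.680 to 3.41 ± 0.164 FPKM (adjusted p = 0.0359 and 0.0405 in limma). The call on Dnajc28 was lost when any single library other than control replicate 4 was left out (adjusted p = 0.0542 to 0.0847), with median-centring (0.0534) or with no filter (0.0769). That on Dnajc12 was lost without control replicate 1, 2 or 3 or without OGD replicate 2, 3 or 4 (0.0584 to 0.0948), and with no filter (0.0765). Dnajc7, a tetratricopeptide protein that binds both Hsp70 and Hsp90 and the most abundant DNAJC member, stood at 120.5 ± 7.69 and 133.6 ± 6.71 FPKM and did not pass (adjusted p = 0.0821). It passed as higher with quantile normalization (0.00751), without control replicate 1 (0.0338) and with rescaling outside mitochondrially encoded genes (0.0344; range over all alternatives 0.00751 to 0.349).

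Neither Hsp90 transcript passed when all libraries were used. Hsp90ab1 (ENSRNOG00000019834), the constitutive form, was the most abundant chaperone transcript and ranked 57th of all rows by its control mean. It stood at 763.4, 725.8, 715.0 and 748.8 FPKM in the control libraries and at 689.2, 701.6, 816.8 and 827.1 FPKM after OGD (log2 change 0.03, SE 0.08, limma adjusted p = 0.749). OGD replicates 1 and 2 lay below all control libraries and replicates 3 and 4 above them. Hsp90aa1 (ENSRNOG00000059714), the inducible form, stood at 6.42, 6.26, 5.63 and 6.44 FPKM in the control libraries and at 4.59, 4.88, 6.00 and 6.66 FPKM after OGD (log2 change -0.15, SE 0.11, limma adjusted p = 0.302). With OGD replicates 1 and 2 alone Hsp90aa1 passed as lower (limma adjusted p = 0.0305). Its level was 115.9 to 127.0 times below that of Hsp90ab1 in control libraries and 124.1 to 150.3 times below in OGD libraries. The difference of their log2(FPKM + 1) values was -6.69 ± 0.0497 in control and -6.87 ± 0.0822 in OGD (SD over 4 libraries a group). A two-sided exact permutation test gave p = 0.0286, its lowest possible value with 4 against 4. The highest OGD library and the lowest control library were almost equal, and with a pseudocount of 0.1 the test no longer passed (difference -0.21, exact permutation p = 0.0571). Close copies of Hsp90 genes make the level of Hsp90aa1 uncertain.

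The Hsp90 cochaperones split. Stip1 (ENSRNOG00000021164), the bridge between Hsp70 and Hsp90, stood at 119.8, 119.5, 118.4 and 114.6 FPKM in the control libraries and at 77.2, 88.1, 97.8 and 94.8 FPKM after OGD. The control libraries were tightly grouped and all OGD libraries lay below them (log2 change -0.40, SE 0.08, limma adjusted p = 0.00130). Chordc1 (ENSRNOG00000026643), a zinc-binding partner of Hsp90, stood at 7.40, 8.57, 7.0 and 8.58 FPKM in the control libraries and at 11.8, 11.5, 12.1 and 12.3 FPKM after OGD (log2 change 0.54, SE 0.08, limma adjusted p = 0.000413). Ahsa1, which activates the ATPase of Hsp90, stood at 62.1 ± 5.46 and 59.4 ± 8.19 FPKM and did not pass (limma, adjusted p = 0.577).

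Of the 17 Hsp90 partners outside the chosen members, 2 rose, 7 fell and 8 did not pass. Among all tested genes 22.7% were higher and 26.8% lower, and the list is too small for its counts to show anything particular to it. Fkbp5, an immunophilin that restrains steroid receptors, fell from 15.3 ± 1.18 to 6.02 ± 0.428 FPKM (log2 change -1.21, limma adjusted p = 2.01e-06). Tomm34, a cytosolic cochaperone of protein import, fell from 23.7 ± 0.581 to 16.5 ± 0.545 FPKM. Other falls, named after their values were seen, were less firm. That of Fkbp8 was lost with quantile normalization and without control replicate 4, among other settings (limma adjusted p = 0.340 and 0.109). That of Nudc was lost without control replicate 1 (0.0628) and that of Trap1 with rescaling outside mitochondrially encoded genes (0.0773). With OGD replicates 3 and 4 alone Nudc and Ptges3 were lost (0.196 and 0.0718). Unc45a, the myosin chaperone, rose from 6.54 ± 0.210 to 11 ± 0.923 FPKM. Cdc37l1 rose from 15.2 ± 0.774 to 17.5 ± 1.13 FPKM (limma, adjusted p = 0.0489), a call lost without control replicate 1, 2 or 3 or without OGD replicate 1, 2 or 3 (0.0523 to 0.127), with median-centring (0.0912), with quantile normalization (0.0683), without trend (0.0581) and with the block (0.0776).

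The chaperonin CCT is a ring built from 8 different subunits, so the levels of its 8 genes can be set side by side. Of 11 members by symbol the 8 subunit genes were tested, while Cct6b, the pseudogene Cct6a-ps2 and Cct8l1 lay below the filter. Of the 8, 1 rose, 1 fell and 6 did not pass. In every library Cct5 was the highest (155.4 to 188.7 FPKM), and the highest subunit stood 2.00 to 2.17 times above the lowest in control and 2.14 to 2.33 times in OGD.

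Cct4 (ENSRNOG00000009642) stood at 106.4, 93.7, 96.9 and 99.6 FPKM in the control libraries and at 126.6, 112.2, 119.9 and 137.3 FPKM after OGD, with OGD above in every library (log2 change 0.32, SE 0.07, limma adjusted p = 0.00449). Cct6a (ENSRNOG00000000923) stood at 100.2, 98.1, 96.0 and 85.6 FPKM in the control libraries and at 71.2, 72.2, 75.3 and 86.2 FPKM after OGD (log2 change -0.32, SE 0.08, limma adjusted p = 0.00613). OGD replicate 4 was as high as the lowest control library. The ratio of Cct4 to Cct6a, chosen after seeing their values and given without a test, lay between 0.955 and 1.16 in the control libraries and between 1.55 and 1.78 after OGD.

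The other subunits did not pass with all libraries: Tcp1 stood at 104.4 ± 2.28 and 97.3 ± 6.97 FPKM, Cct2 at 93.0 ± 3.47 and 94.7 ± 10.6 FPKM, and Cct3 at 107.1 ± 4.93 and 97.8 ± 4.98 FPKM. Cct5 stood at 182.2 ± 6.12 and 168.7 ± 11.9 FPKM, Cct7 at 107.9 ± 4.76 and 102.9 ± 10.8 FPKM, and Cct8 at 87.5 ± 3.81 and 77.8 ± 10.9 FPKM. Their SDs were mostly larger in OGD, where replicate 4 was the highest OGD library for all 8 subunits. With OGD replicates 1 and 2 alone 5 of these 6 genes, all but Cct2, passed as lower (limma adjusted p = 0.00380 to 0.0441). Without OGD replicate 4 Cct8 passed as lower (log2 change -0.26, limma adjusted p = 0.0161, range over all alternatives 0.00380 to 0.848).

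**Figure D4:**
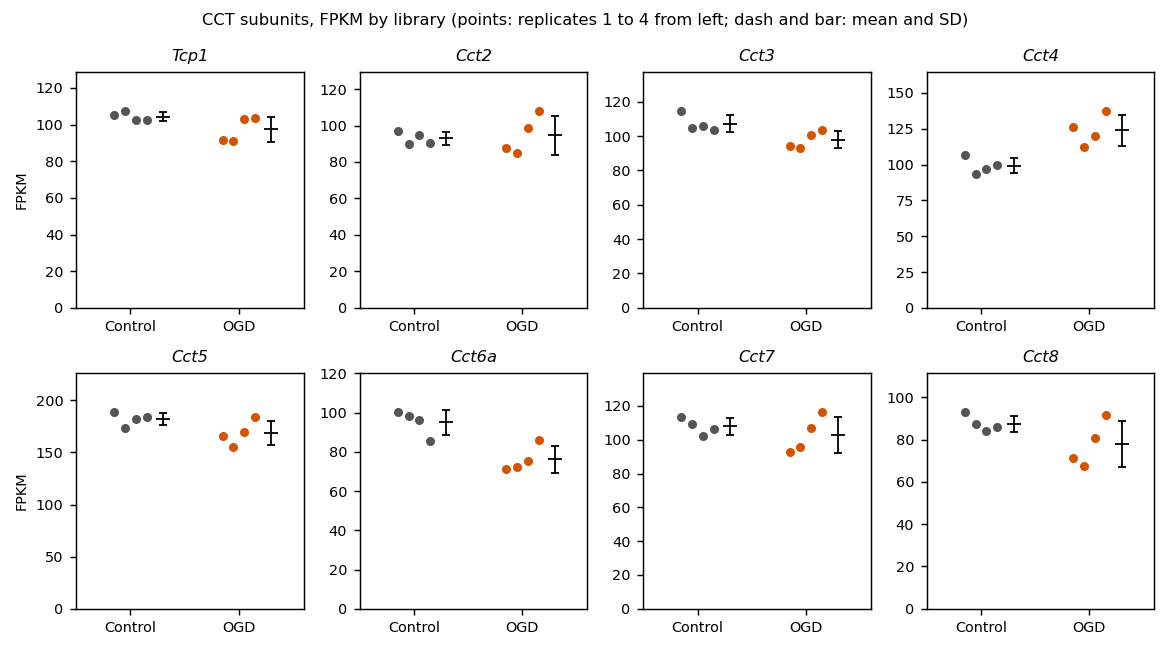
FPKM (y axis, from 0) of the 8 CCT subunit genes in each library, with replicates 1 to 4 from left to right in each group and the mean and SD beside them. Cct4 is higher in OGD in every library, Cct6a is lower in OGD replicates 1 to 3, and OGD replicate 4 is the highest of the OGD libraries in every panel.

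Of 14 genes of prefoldin, which hands actin and tubulin to CCT, and of related factors, 13 were tested, of which 3 rose and 2 fell. These counts are near the background of 22.7% higher and 26.8% lower among all tested genes, given the few genes. Pfdn4, a prefoldin subunit, rose from 36.3 ± 5.74 to 55.0 ± 3.34 FPKM (log2 change 0.60, limma adjusted p = 0.000628), and Pdcl3, a phosducin-like CCT cofactor, from 22.3 ± 1.5 to 29.1 ± 2.10 FPKM. Pdcl, another phosducin-like cofactor, fell from 12.1 ± 0.990 to 7.10 ± 1.43 FPKM, and Tbcd, a tubulin cofactor, from 13.9 ± 0.614 to 9.87 ± 1.00 FPKM. The remaining rise was Tbce (log2 change 0.24), a call lost without control replicate 2, 3 or 4 or OGD replicate 1 or 4 (limma adjusted p = 0.0656 to 0.0796) and with median-centring (0.0591).

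Of the mitochondrial chaperones, Hspd1 (ENSRNOG00000014525), the folding chamber Hsp60, stood at 93.3, 98.2, 96.1 and 89.7 FPKM in the control libraries and at 77.3, 71.1, 87.9 and 83.7 FPKM after OGD (log2 change -0.24, SE 0.07, limma adjusted p = 0.0192). OGD replicate 3 lay just under the lowest control library. The call was lost without control replicate 2 or 3, without OGD replicate 1 or 2 (adjusted p = 0.0501, 0.0524, 0.0506 and 0.0504) and with quantile normalization (0.142). Over the 8 genes with mitochondrial products 1 rose, 3 fell and 4 did not pass.

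Small heat shock proteins, ATP-independent holders of unfolded protein, were mostly near 0. Of 9 members 6 lay below the filter, and Hspb2, Hspb3 and Hspb7 were listed at 0 in every library. Cryab, alpha B-crystallin, stood at 2.37, 1.15, 1.66 and 1.86 FPKM in the control libraries and at 0.995, 0.809, 1.62 and 1.35 FPKM after OGD, with overlapping groups (log2 change -0.33, SE 0.17, limma adjusted p = 0.131). Hspb6, the most abundant, stood at 21.7 ± 2.00 and 20.5 ± 2.52 FPKM and did not pass (limma, adjusted p = 0.516). Hspb11, grouped here by symbol alone, stood at 14.9 ± 1.05 and 11.7 ± 3.93 FPKM and did not pass (limma, adjusted p = 0.0927). It passed as lower without OGD replicate 4 (0.00153), with OGD replicates 1 and 2 alone (0.0042) and with the block (0.0475). Over all families 22 of the 90 genes lay below the filter, of which 7 were listed at 0 in every library and the highest single value was 1.43 FPKM (Bag3).

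The OGD libraries differed among themselves in many chaperone genes. Hsp90ab1, Hspa8 and 7 of the 8 CCT genes were higher in OGD replicates 3 and 4 than in 1 and 2, while Cct4 and Bag6 showed no such order and Dnajc7 had the reverse. Summed CCT values stood at 918.4, 864.7, 865.1 and 857.7 FPKM in the control libraries and at 801.2, 771.8, 854.7 and 930.5 FPKM after OGD. OGD replicates 3 and 4 both lay above replicates 1 and 2 in 36 of the 68 tested genes (52.9%), against 25.9% of all tested genes, and both lay below in 7 (10.3%, against 21.4%). Replicates 3 and 4 were also those with the lower mitochondrially encoded shares given above and the greater relative depths (1.14 and 1.18, against 0.928 and 0.816). When FPKM were rescaled to the sum outside mitochondrially encoded genes, the share with replicates 3 and 4 above was 41.2% for the chaperones and 15.4% for all tested genes. The share with both below was then 16.2% and 30%, so over all tested genes below was the more frequent order on this scale. Hsp90ab1 then stood at 722.3, 723.7, 814.8 and 810.0 FPKM in OGD replicates 1 to 4. The spread of Hspa8 in OGD, as SD over mean, was 9.73% as deposited and 7.02% rescaled. The pattern was noticed in the data, and the part of depth in it was not tested.

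**Figure D5:**
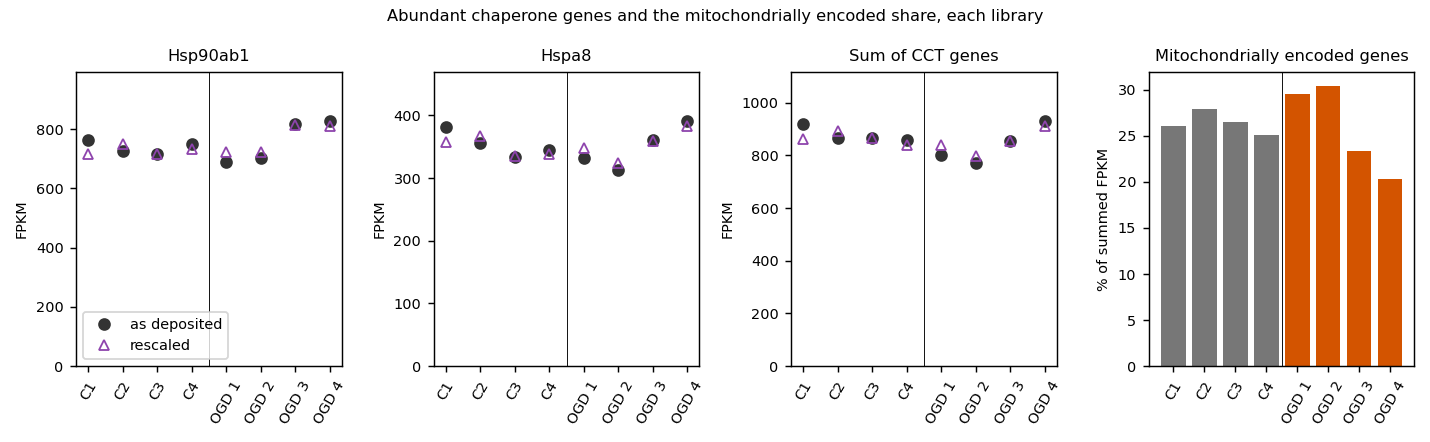
FPKM of Hsp90ab1, of Hspa8 and of the summed CCT genes in each library (C1 to C4: control; filled points: as deposited; open triangles: rescaled to the sum outside mitochondrially encoded genes), and the share of summed FPKM of mitochondrially encoded genes (bars, from 0). OGD replicates 3 and 4 are higher than OGD replicates 1 and 2 for Hsp90ab1 on both scales, and their mitochondrially encoded shares are lower at 23.4% and 20.4%.

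By weight, the chaperone genes made up 0.739% to 0.753% of all FPKM in the control group. For OGD replicates 1 to 4 the share was 0.680%, 0.658%, 0.772% and 0.814%. CCT (24.9% of the chaperone sum in control, 25.2% in OGD), Hsp90 (21.2% and 22.9%) and DNAJC genes (15.9% and 15.1%) made up most of it. The BAG share was 3.04% and 3.94%, and the BAG sums of 104.6 to 109.3 FPKM in control and 125.8 to 135.3 FPKM in OGD did not overlap. The Hsp110 sum stood at 83.1 to 91.6 FPKM in control and 62.3 to 68.1 FPKM in OGD, and the DNAJA sum at 219.4 to 233.4 and 163.9 to 190.3 FPKM, with OGD below. These sums are led by their most abundant members and are given as a description with no test.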

How the data were processed

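RNA from 8 libraries (4 control, 4 OGD) was measured by RNA sequencing. Per the labels' protocols, the RNeasy kit was used for RNA and an Agilent SureSelect kit that keeps strand for libraries. The sequencer was an Illumina MiSeq, as the series design states. The values the authors deposited are FPKM, 1 per gene and library, and hold no counts, per the file headers. Per the submitters' processing notes, Trimmomatic and FastQC were used, with genome build rn6 (Rnor_6.0). For the aligner, the FPKM program and the counting by strand, the sources used here give nothing, so values of overlapping genes and close copies are uncertain. Groups came from the sample labels.

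From the FPKM, log2(FPKM + 1) was computed, which understates changes of low genes. A gene was tested if 4 or more libraries held 1 FPKM or more (11149 of 32662). The test was limma 3.58.1 under R 4.3.3, with group as the model and a trended prior, Benjamini-Hochberg adjustment over all tested genes and a threshold of 0.05. The procedure was tested on simulated data, with all libraries drawn independently at the spread of the control group. The simulation therefore does not cover the differences among the OGD libraries. The Hsp90 difference was compared by exact permutation.

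The members, the lists and the rule for named genes were chosen with earlier results of these data known. The rule named all Hsp90, Hsp110, CCT, Hsp60 and cochaperone genes and the known HSF1 targets. In each other family it named up to 4 rises, up to 4 falls and the most abundant gene, and in each outside list the 2 smallest p per direction. One gene selected this way is not reported here. Of 114 list entries 110 matched by symbol and 4 did not. Relative depth came from 1200 to 1502 genes of at most 0.5 FPKM, of whose ratios to control replicate 1 between 73.7% and 76.6% were whole-number ratios within 0.01 (log2). Promoters were searched with Python 3.11.15. Alternatives were a pseudocount of 0.1, no filter, a filter of 5 FPKM, quantile normalization, median-centring, rescaling outside mitochondrially encoded genes, no trend, the replicate number as a block, rows of a symbol summed and each library left out. Chosen after seeing the data were OGD replicates 1 and 2 alone and 3 and 4 alone.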

Additional observations from a re-analysis of the deposited data

Results flagged for a closer look

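Among 86 groups of 4 libraries, 2 held a value with a gap to its neighbour that was large for the range of its group. About 4.3 would be so by chance. Bag1 stood at 26.0 FPKM in OGD replicate 1, above 3 nearly equal values of 25.6 FPKM, a small difference in a group of very narrow range. Rescaled outside mitochondrially encoded genes, its OGD replicates 1 to 4 stood at 27.2, 26.4, 25.6 and 25.1 FPKM. Hsf1 stood at 7.81 FPKM in control replicate 3, below 9.87 to 10.2 FPKM in the other control libraries, and its rise passed without that library too.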

How the results depend on the processing

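Of the 32 chaperone calls, 19 (9 rises, 10 falls) passed in the same direction under each of 18 alternatives, all but the filter of 5 FPKM, which removed 5 of the 32 genes from testing. No chaperone call changed direction under any of the 19. Chaperone genes called lower numbered 20, and 11 with OGD replicates 3 and 4 alone. The share called over all tested genes in fits with fewer libraries is not given. Genes called higher in the lists outside the rule numbered 11, but 7 with OGD replicates 1 and 2 alone, 7 with replicates 3 and 4 alone, and 7 to 10 with 1 library left out (7 without control replicate 3). Falls in these lists were lost as well, among them those of Dnajc3, Fkbp8, Nudc, Ptges3 and Trap1 as given above. The Hsp90aa1 minus Hsp90ab1 difference of -0.18 was -0.21 with a pseudocount of 0.1 (exact permutation p = 0.0571), and ranged from -0.22 to -0.16 with single libraries left out (exact permutation p = 0.0286 to 0.0571). With the replicate block it was -0.18 (exact permutation p = 0.125, the smallest that 4 pairs allow). With the block 11 chaperone genes were higher and 20 lower: the calls on Bag6, Hspbp1 and Hsph1 were lost, and Dnajc16 and Hspb11 passed as lower. Same-numbered libraries had correlated deviations of -0.222 to 0.163, over 0.1 in 1 of 4 pairs, and 1 of 4 control libraries matched its own number best, so the numbers were not taken as pairs. Without counts, no limit can be given for genes listed at 0.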
